A study of Mus musculus with 5 samples.

Results

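Peritoneal lavage cells from mice described as Irf8-deficient and given pristane (libraries labelled Irf8KO, 2 libraries) were compared with the single library of peritoneal cells from wild-type C57BL/6 mice given phosphate-buffered saline (WT PBS, 1 library). Genotype and treatment both differ between these groups, and no library of Irf8-deficient mice given PBS was used here, so the parts of genotype and treatment in any change reported here cannot be told apart. The series also holds 2 libraries of wild-type mice given pristane (WT pristane), which are used to show where the Irf8KO-labelled libraries stand apart. All mice were 8 weeks old. The Irf8 allele, the strain background of the deficient mice, their sex, the dose of pristane and the time from injection to lavage were not found in the labels, and the labels do not state whether each library came from a separate animal. P-values therefore measure only the spread between these libraries, which may be technical. RNA was sequenced by Smart-seq2, a method that copies polyadenylated RNA from little material, and the deposited values are FPKM, fragments scaled to transcript length and to sequencing depth. A gene was included when it had at least 1 FPKM in 1 of the 3 libraries compared and both Irf8KO-labelled libraries lay on the same side of PBS. Of 22815 genes listed, 10775 reached that level, and 9419 of these met both conditions, 4407 higher and 5012 lower than PBS. At the edge of the level threshold, Rpp25, a subunit of ribonuclease P, was just inside with 0 FPKM in PBS and 0.872 and 1.00001 in the Irf8KO-labelled libraries, and Procr, the endothelial protein C receptor, was just outside with 0.99987, 0.905 and 0.65.

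Irf8 is a transcription factor of the interferon regulatory factor family that guides progenitors towards monocytes and dendritic cells, takes part in B cell development, and restrains the production of neutrophils. It binds DNA together with partners, at composite elements with ETS factors such as PU.1 and at interferon-stimulated response elements with other interferon regulatory factors. Pristane is a hydrocarbon oil that causes lasting sterile inflammation when placed in the mouse peritoneum, with recruitment of neutrophils and of monocytes that are a source of type I interferon, and loss of the large macrophages and B cells that normally fill the cavity. In C57BL/6 mice it also leads to bleeding into the lung air spaces, the condition named in the title of the series.

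The table itself gives the following facts on the libraries. Estimated depth ran from 2300000 fragments in PBS to 5035000 in Irf8KO pristane 1. The Irf8 transcript was listed at 32.4 FPKM in PBS, 63.3 and 48.7 in WT pristane and 121 and 59.4 in the Irf8KO-labelled libraries, so its level was not lower under the Irf8KO label (log2 change 1.36 ± 0.50 SE, adjusted p = 0.152). A deletion of part of the gene can leave the rest of its transcript in place, and a value summed over the gene does not show which exons are present, so this value does not check the label. Xist, which is transcribed from the inactive X chromosome of female cells, was listed at 43.5 FPKM in PBS, at 0 and 8.81 in WT pristane and at 0.0148 and 0.0145 in the Irf8KO-labelled libraries. Eif2s3y, carried on the Y chromosome, was listed at 0 in PBS, at 12.9 and 0 in WT pristane and at 23.2 and 25.6. These sex-linked transcripts separate PBS from both Irf8KO-labelled libraries, so sex, genotype and treatment cannot be told apart in this comparison. The ribosomal RNA precursor Rn45s was listed at 0 in PBS and WT pristane 2, and at 14587 in WT pristane 1 and 9001 and 10403 in the Irf8KO-labelled libraries. It thus divided the libraries as the sex-linked transcripts did, and its part in the other results was not tested.

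Of 11117 genes tested across all 5 libraries, 424 rose (3.81%) and 525 fell (4.72%) in the Irf8KO-labelled libraries against PBS. The test was limma on log2(FPKM + 1) with a Benjamini-Hochberg adjusted p under 0.05, and changes are given as log2 differences on that scale with their standard error (SE), which understates the change of genes with low FPKM. Among the called genes, 46 that rose were listed at 0 in PBS and 118 that fell were listed at 0 in both Irf8KO-labelled libraries. No fold change is given for such genes, since a listed 0 may be a failed estimate. A change of at least 2-fold in both libraries, with no test, was seen for 1168 genes upwards (10.8%) and 1239 downwards (11.5%). Among genes with a mean log2(FPKM + 1) of at least 3 in these libraries, leaving out antigen receptor segments, predicted genes and genes listed at 0 in a group, the largest rises were in neutrophil genes, Spp1 and Arg1, and the largest falls in Ly86, C1qa and genes of mast cells and B cells. The median change over all genes tested was -0.05. It serves, with the shares of 3.81% that rose and 4.72% that fell, as the reference for the gene groups below. Where values follow a gene without group names, they are in the order PBS, then the WT pristane libraries where given, then Irf8KO pristane 1 and 2.

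**Figure D1:**
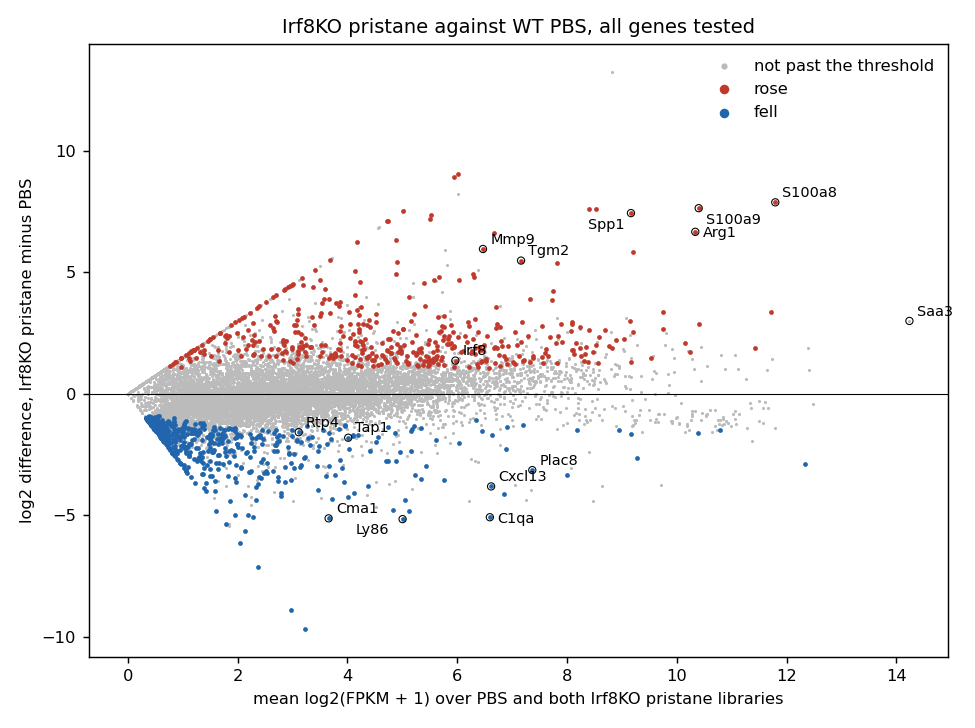
Each point is 1 of the 11117 genes tested; the horizontal axis is the mean log2(FPKM + 1) over the PBS library and the 2 Irf8KO-labelled libraries, and the vertical axis the fitted log2 difference between Irf8KO pristane and PBS. Coloured points are the 424 genes that rose and the 525 that fell; S100a8 is the highest labelled point at 7.87 and Ly86 the lowest at -5.16.

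Neutrophil genes were among the largest rises. S100a8, a chain of calprotectin, the protein that fills the neutrophil cytoplasm, was at 92.5 FPKM in PBS, 29441 in Irf8KO pristane 1 and 16299.9 in Irf8KO pristane 2 (log2 change 7.87 ± 0.47 SE, adjusted p = 0.0264). Its partner S100a9 was at 38.7, 11882 and 5221 (log2 change 7.63 ± 0.60 SE, adjusted p = 0.0274). Both Irf8KO-labelled libraries were far above PBS for this pair, and library 1 was higher than library 2. Lcn2, which binds bacterial iron carriers, rose from 9.03 FPKM to 2706 and 1414 (log2 change 7.61 ± 0.54 SE, adjusted p = 0.0274). Retnlg, a resistin-like protein of neutrophils, rose from 10 to 3401 and 1325 (log2 change 7.59 ± 0.62 SE, adjusted p = 0.0274). Mmp8, the neutrophil collagenase, rose from 0.552 to 336 and 186 (log2 change 7.34 ± 1.16 SE, adjusted p = 0.0457), and Asprv1, a protease that also marks mature neutrophils in mice, from 0.652 to 312 and 180.1 (log2 change 7.17 ± 0.42 SE, adjusted p = 0.0264). Cxcr2, the receptor that draws neutrophils to chemokines, rose from 1.44 to 120.4 and 88.5 (log2 change 5.42 ± 0.47 SE, adjusted p = 0.0282). Of 19 mature neutrophil genes tested, 11 rose (all genes 3.81%), with a median change of 4.82. Members such as Asprv1 reached 1 FPKM only in the pristane libraries and were tested for that reason. The filter thus set part of this count in advance, and the count is a description only. The median was 5.07 in library 1 and 4.50 in library 2. In WT pristane against the same PBS library 10 of the 19 rose (all genes 5.18%), with a median of 4.39. S100a8 was at 10376 and 9877 FPKM there, and its difference between the pristane groups missed the threshold (log2 difference 1.11 ± 0.38 SE, adjusted p = 0.232). Not every member moved by as much: Slpi, a secreted inhibitor of neutrophil elastase, was already at 1173 FPKM in PBS and at 2953 and 1893 (log2 change 1.01 ± 0.90 SE, adjusted p = 0.473).

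Genes of neutrophil granules and their bone marrow precursors were also higher, with a wider spread between genes. Camp, the cathelicidin of specific granules, was listed at 0 in PBS and was at 287 and 116 FPKM in the Irf8KO-labelled libraries. Hp, haptoglobin, rose from 39 to 2887 and 1785 (log2 change 5.83 ± 0.53 SE, adjusted p = 0.0306), and Cd63, a tetraspanin of granule and lysosome membranes, from 51.1 to 225 and 321 (log2 change 2.37 ± 0.30 SE, adjusted p = 0.0371). Of 15 such genes tested, 4 rose (all genes 3.81%) and 15 were above PBS in both libraries (all genes 40.7%). For 6 of the 15 the listed value in PBS was 0, so they were tested through the pristane libraries and could not lie below PBS. The count of 15 was thus partly fixed in advance. The median was 2.37, and it was 5.83 among genes with a mean of at least 5 FPKM. Camp was at 6.33 and 10.6 FPKM in WT pristane, below both Irf8KO-labelled libraries, but the difference missed the threshold (log2 difference 4.32 ± 0.54 SE, adjusted p = 0.0776). In bulk samples such as these, more cells of a type and more RNA per cell cannot be told apart, and the same holds for every fall below. The Fc receptor gamma chain Fcer1g, the signalling subunit shared by activating Fc receptors of neutrophils and macrophages, rose from 362 to 2921 and 2383 (log2 change 2.86 ± 0.31 SE, adjusted p = 0.0319). Ncf1, a subunit of the phagocyte oxidase, the enzyme of the respiratory burst, rose from 50.8 to 352 and 359 (log2 change 2.78 ± 0.46 SE, adjusted p = 0.0483).

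Most interferon-stimulated genes were close to their PBS levels or below them. Rtp4, a chaperone of receptor trafficking that interferon induces, was at 17 FPKM in PBS, 129 and 135 in WT pristane and 4.7 and 5.32 in the Irf8KO-labelled libraries. It fell against PBS (log2 change -1.58 ± 0.19 SE, adjusted p = 0.0359), and its difference from WT pristane also passed the test (log2 difference -4.47 ± 0.16 SE, adjusted p = 0.0368). Ifit1, which binds foreign RNA caps, was at 1.86 in PBS, 50.1 and 49.8 in WT pristane and 0.153 and 0.221 under the Irf8KO label. Its change from PBS missed the threshold (log2 change -1.27 ± 0.23 SE, adjusted p = 0.0544), and its difference from WT pristane passed (log2 difference -5.42 ± 0.19 SE, adjusted p = 0.0368). Rsad2, the antiviral enzyme viperin, was at 1.47 in PBS, 129.8 and 169 in WT pristane, and 1.48 and 1.33 in the Irf8KO-labelled libraries (log2 change -0.04 ± 0.26 SE, adjusted p = 0.933), and differed from WT pristane (log2 difference -5.95 ± 0.21 SE, adjusted p = 0.0368). In all 3 genes the Irf8KO-labelled libraries were near or under the PBS value while both WT pristane libraries were far over it. Since both pristane groups are set against the same PBS library, the difference between their changes is the difference between the pristane groups, and these 3 genes were the only ones of 11117 to pass that test with the planned settings (0.027%). A further 111 genes had adjusted p-values from 0.05 to 0.06 there. Rsad2 lies outside the rule for named genes and was named because the count is small.

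Across the type I interferon list, 0 of 37 genes rose (all genes 3.81%) and 1 fell (all genes 4.72%) against PBS by limma. At an unadjusted p under 0.05, 3 were higher (all genes 1738 of 11117) and 8 lower (all genes 2009 of 11117). The median change was -0.57. In WT pristane against the same PBS library 29 of the 37 rose (all genes 5.18%), with a median of 2.65. For 37 of 37 members both Irf8KO-labelled libraries lay below both WT pristane libraries, against 27.1% of all genes tested. Irf7, the factor that amplifies interferon production, was at 6.55 FPKM in PBS, 393 and 482 in WT pristane and 11.4 and 15.7 in the Irf8KO-labelled libraries, a small change from PBS that missed the threshold (log2 change 0.93 ± 0.28 SE, adjusted p = 0.114). Siglec1, a sialic acid receptor of macrophages that interferon also induces, had the largest upward difference of the list, at 2.9 in PBS and 8.66 and 11.5 (log2 change 1.49 ± 0.34 SE, adjusted p = 0.0742), and it too missed the threshold. Ddx58, the RNA sensor RIG-I, was at 9.13, 4.12 and 4.53 (log2 change -0.93 ± 0.23 SE, adjusted p = 0.0849). Ifitm3, the most abundant member in PBS, which blocks viral entry, was at 417 FPKM in PBS and 739.7 and 605 (log2 change 0.68 ± 0.30 SE, adjusted p = 0.209), and Bst2, the tether of budding virus, at 54.3, 64.8 and 69.4 (log2 change 0.30 ± 0.30 SE, adjusted p = 0.52). Zbp1, a sensor of nucleic acid in the Z form, was at 31.8, 21.3 and 16.9 (log2 change -0.71 ± 0.22 SE, adjusted p = 0.116). Ifi27l2a, an interferon-induced gene that is not on the list, was at 349, 73.6 and 63.8 (log2 change -2.33 ± 0.60 SE, adjusted p = 0.0867). Of 13 interferon gamma response genes 0 passed in limma (all genes 8.54%), with a median of -0.79. At an unadjusted p under 0.05, 2 were higher (all genes 1738 of 11117) and 3 lower (all genes 2009 of 11117). Among them Ifi47, an interferon-induced GTPase, was at 17.4, 8.03 and 9.12 (log2 change -0.94 ± 0.24 SE, adjusted p = 0.0859). Irf1, an early target of interferon gamma, was at 29.8, 41.4 and 21.7 (log2 change 0.01 ± 0.47 SE, adjusted p = 0.996).

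**Figure D2:**
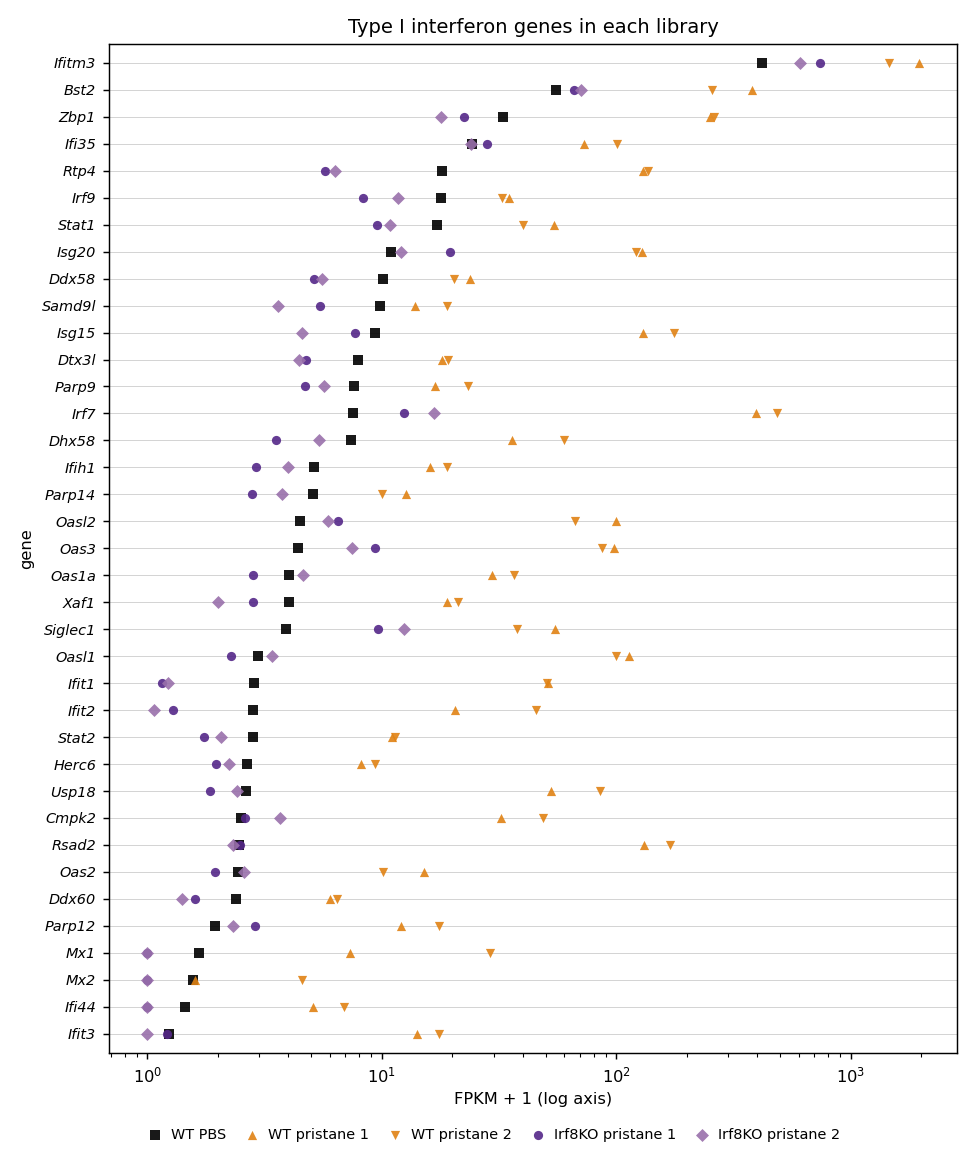
FPKM + 1 on a log axis for the 37 tested type I interferon genes, ordered by their level in PBS, with a point for each of the 5 libraries. The Irf8KO-labelled points lie about the PBS points and below both WT pristane points in 37 of 37 genes.

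The promoters of Ifit1 and Rsad2 are shown because these genes carry the clearest difference from WT pristane, and that of Saa3, the most abundant listed transcript of the Irf8KO-labelled libraries, for contrast. Each line gives the 250 bases before the start of the gene, read 5′ to 3′ on the strand of the gene, from RefSeq on build GRCm38.p6, and capitals mark matches to the core of the interferon-stimulated response element, searched as GAAA, any 2 bases, GAAA, or its reverse complement. No entry for Rtp4 was matched.
Ifit1: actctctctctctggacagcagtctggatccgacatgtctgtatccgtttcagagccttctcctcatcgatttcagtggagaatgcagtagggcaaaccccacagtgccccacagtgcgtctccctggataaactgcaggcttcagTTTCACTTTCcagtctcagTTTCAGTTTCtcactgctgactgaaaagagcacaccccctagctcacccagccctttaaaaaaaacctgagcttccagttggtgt
Rsad2: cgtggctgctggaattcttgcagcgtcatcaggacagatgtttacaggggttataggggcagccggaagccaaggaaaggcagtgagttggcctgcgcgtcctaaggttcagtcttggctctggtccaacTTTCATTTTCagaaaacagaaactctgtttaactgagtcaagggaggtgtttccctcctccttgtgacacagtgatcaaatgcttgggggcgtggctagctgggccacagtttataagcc
Saa3: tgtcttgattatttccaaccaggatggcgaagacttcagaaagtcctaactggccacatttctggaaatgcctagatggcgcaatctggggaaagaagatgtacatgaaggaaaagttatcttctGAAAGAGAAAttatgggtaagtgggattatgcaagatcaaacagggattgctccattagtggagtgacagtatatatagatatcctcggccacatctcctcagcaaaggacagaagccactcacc
The window of Ifit1 is chr19:34640639-34640888 on the plus strand, that of Rsad2 chr12:26456453-26456702 on the minus strand and that of Saa3 chr7:46715677-46715926 on the minus strand. Counted from the start of the gene, Ifit1 had 2 matches, whose first bases were at -104 and -85, Rsad2 had 1 at -120 and Saa3 had 1 at -125. In windows of 300 bases that also take in the first 50 bases of the gene, and on both strands, the motif was present in 1079 of 27025 genes (3.99%). It was present in 12 of the 26 type I interferon genes that matched a promoter, of 37 on the list (46.2%). The composite element of ETS and interferon regulatory factors, searched as GGAA, any 2 bases, GAAA, was present in 3.16% of all genes and in 3 of the 26. A gene can hold matches to both patterns, as Stat2 did. These matches describe the sequence and do not show that a factor was bound.

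Some genes of class I antigen presentation fell below PBS. Tap1, a subunit of the transporter that carries peptides into the endoplasmic reticulum, was at 36.4 FPKM in PBS, 70.7 and 80.3 in WT pristane and 10.6 and 8.77 in the Irf8KO-labelled libraries (log2 change -1.81 ± 0.22 SE, adjusted p = 0.0358). Psmb8, a subunit of the immunoproteasome, was at 267 in PBS and 113 and 102 (log2 change -1.30 ± 0.19 SE, adjusted p = 0.0423), and Nlrc5, the activator of class I genes, at 3.12, 0.319 and 0.463 (log2 change -1.57 ± 0.24 SE, adjusted p = 0.0432). For all 3 the WT pristane libraries lay on the other side of PBS. The differences from WT pristane missed the threshold: log2 difference -2.84 ± 0.18 SE, adjusted p = 0.0541 for Tap1, log2 difference -1.68 ± 0.16 SE, adjusted p = 0.0562 for Psmb8 and log2 difference -2.47 ± 0.19 SE, adjusted p = 0.0554 for Nlrc5. These were the 3 of 12 class I genes that fell (all genes 4.72%). The abundant surface chain genes were close to PBS, with B2m at 3313 FPKM in PBS and 2717 and 2724 (log2 change -0.28 ± 0.31 SE, adjusted p = 0.557), and H2-D1 at 1021, 977 and 1005 (log2 change -0.04 ± 0.30 SE, adjusted p = 0.934).

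Large resident macrophages of the peritoneum are known by the transcription factor Gata6 and by genes such as Alox15, Prg4, Selp, Icam2 and Timd4, and here the set divided. Alox15, an enzyme that oxidises fatty acids, was at 1046 FPKM in PBS, 1.99 and 9.04 in WT pristane and 342 and 605 in the Irf8KO-labelled libraries (log2 change -1.20 ± 0.85 SE, adjusted p = 0.382). Prg4, the lubricating protein lubricin, was at 293 in PBS, 5.65 and 1.79 in WT pristane and 110.2 and 188 (log2 change -1.02 ± 0.66 SE, adjusted p = 0.342). Selp, P-selectin, was at 73.1, 1.34 and 2.09, and 69 and 136 (log2 change 0.40 ± 0.49 SE, adjusted p = 0.596). For all 3 the Irf8KO-labelled libraries were within a few fold of PBS and both WT pristane libraries were far lower. F5, coagulation factor V, was at 51.8 in PBS, 3.93 and 3.66 in WT pristane and 74.5 and 143 (log2 change 0.98 ± 0.44 SE, adjusted p = 0.211). Icam2, an integrin ligand, was at 195, 27.3 and 13.4, and 357 and 402 (log2 change 0.96 ± 0.46 SE, adjusted p = 0.232). Gata6 itself was at 6.13 in PBS, 1.96 and 1.4 in WT pristane and 7.7 and 15.7 (log2 change 0.76 ± 0.48 SE, adjusted p = 0.34), and Emr1, the older symbol of the gene for F4/80, at 266, 75.4 and 118, and 354 and 577 (log2 change 0.76 ± 0.45 SE, adjusted p = 0.304). Gata6, Selp and Emr1 were named after their values were seen, because they define these cells. The differences between the pristane groups did not pass: log2 difference 6.38 ± 0.70 SE, adjusted p = 0.0661 for Alox15, log2 difference 5.07 ± 0.54 SE, adjusted p = 0.0626 for Prg4 and log2 difference 4.44 ± 0.36 SE, adjusted p = 0.0562 for F5.

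Other genes of the same cells fell. Timd4, a receptor for dying cells on long-lived resident macrophages, fell from 26.9 FPKM to 0.0957 and 0.552 (log2 change -4.42 ± 0.31 SE, adjusted p = 0.0274). Cxcl13, the chemokine that holds B cells in the cavity, fell from 572 to 32.6 and 48.2 (log2 change -3.82 ± 0.31 SE, adjusted p = 0.0274), and was at 1.26 and 1.49 in WT pristane, a difference between the pristane groups that missed the threshold (log2 difference 4.10 ± 0.25 SE, adjusted p = 0.0541). Tgfb2, a growth factor, fell from 28.2 to 2 and 4.58 (log2 change -2.83 ± 0.45 SE, adjusted p = 0.0457) and was named because only 3 genes of the list fell. Serpinb2, an inhibitor of plasminogen activators, rose from 129 to 550.3 and 784 (log2 change 2.34 ± 0.33 SE, adjusted p = 0.0404), while WT pristane was at 32.2 and 43. F10, coagulation factor X, rose from 29.9 to 151 and 171 (log2 change 2.39 ± 0.27 SE, adjusted p = 0.0339), and was at 115 and 158 in WT pristane. In all, 2 of 23 large peritoneal macrophage genes rose (all genes 3.81%) and 3 fell (all genes 4.72%), with a median of 0.28. The sign of that median is not fixed: it was -0.15 in library 1 and 0.89 in library 2, and -0.11 after quantile normalization. In WT pristane 1 rose and 13 of 23 fell (all genes 5.46%), with a median of -3.46. The summed FPKM of the list was 4392 in PBS, 739.5 and 1455 in WT pristane and 3590.4 and 5477 in the Irf8KO-labelled libraries.

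**Figure D3:**
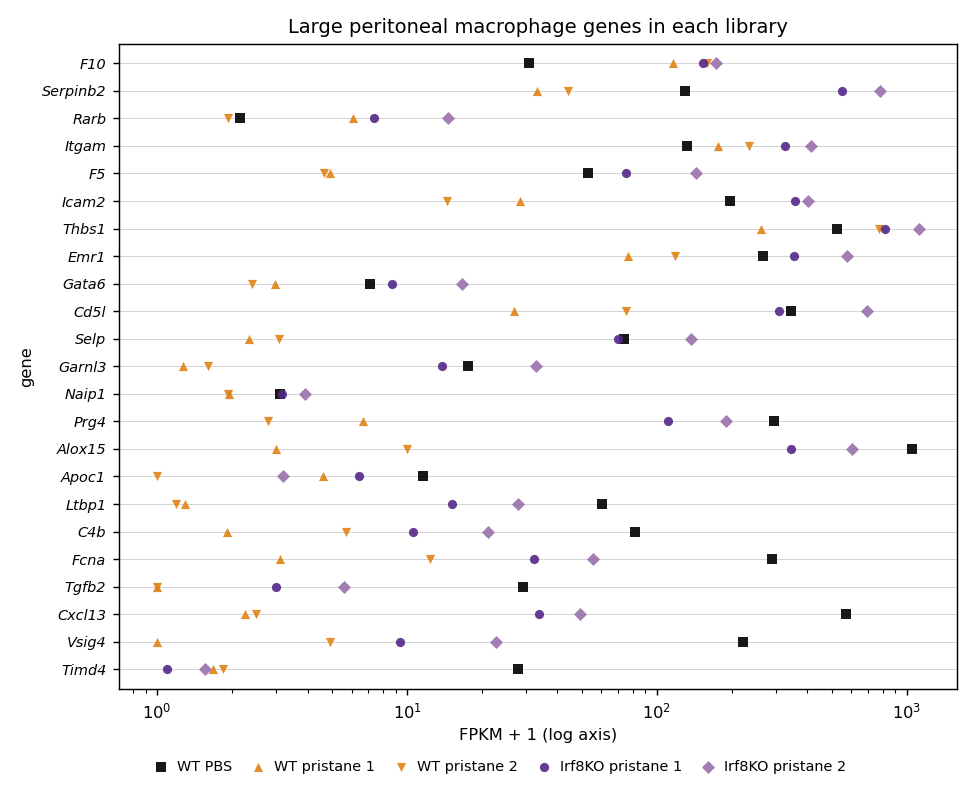
FPKM + 1 on a log axis for the 23 tested large peritoneal macrophage genes, ordered by the fitted change from PBS in Irf8KO pristane, with a point for each library. Alox15, Prg4, Selp and F5 have Irf8KO-labelled points near PBS and WT pristane points far below, while Timd4 is low in all 4 pristane libraries.

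Ly86 and the complement gene C1qa fell, and class II antigen presentation genes were lower than PBS in both libraries. Ly86, also called MD-1, which pairs with the Toll-like receptor homologue RP105, was at 348 FPKM in PBS, 142 and 114 in WT pristane and 7.73 and 9.87 in the Irf8KO-labelled libraries (log2 change -5.16 ± 0.26 SE, adjusted p = 0.0264). C1qa, a chain of C1q made by tissue macrophages, was at 1012 in PBS, 383 and 287 in WT pristane and 19.8 and 41.8 (log2 change -5.08 ± 0.52 SE, adjusted p = 0.0318). The 4 pristane libraries were thus all below PBS for both genes, the Irf8KO-labelled ones by more, and the differences from WT pristane missed the threshold (log2 difference -3.72 ± 0.21 SE, adjusted p = 0.0541 for Ly86 and log2 difference -3.48 ± 0.42 SE, adjusted p = 0.0747 for C1qa). H2-DMa, part of the editor that loads peptides on class II molecules, fell from 176 to 19.3 and 13.8 (log2 change -3.35 ± 0.40 SE, adjusted p = 0.0348). The class II chain H2-Aa was at 2765, 169 and 95.4 (log2 change -4.43 ± 0.87 SE, adjusted p = 0.0579), and the invariant chain Cd74 at 4799, 481 and 258 (log2 change -3.76 ± 1.09 SE, adjusted p = 0.105). For these 2 genes the change was large but missed the threshold. Of 10 class II genes 1 fell (all genes 4.72%), and 10 of 10 were lower than PBS in both libraries (all genes 46%), with a median of -3.78. B cells also carry class II molecules, and B cell transcripts were lower in the same libraries; their part in this result was not tested.

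Of the dendritic cell genes, few differed from PBS beyond the threshold. Batf3, which directs the development of cross-presenting dendritic cells, fell from 5.17 FPKM to 0.469 and 0 (log2 change -2.35 ± 0.34 SE, adjusted p = 0.0422) and was at 4.98 and 4.12 in WT pristane. It was the only gene of 15 on the list that fell in limma (all genes 4.72%), and the list median was -0.26. At an unadjusted p under 0.05, 4 were lower (all genes 2009 of 11117) and 1 higher (all genes 1738 of 11117). Cd209a, a lectin of monocyte-derived dendritic cells, was at 20.7, 0 and 0.22 (log2 change -4.30 ± 1.07 SE, adjusted p = 0.0838), and Kmo, an enzyme of tryptophan breakdown, at 6.3, 0.163 and 0.235 (log2 change -2.61 ± 0.65 SE, adjusted p = 0.0844). Tlr9, the receptor for unmethylated DNA of plasmacytoid dendritic cells and B cells, fell from 19.7 to 1.68 and 0.811 (log2 change -3.23 ± 0.35 SE, adjusted p = 0.0324). The adaptor Myd88 rose from 25.1 to 69.7 and 56.7 (log2 change 1.29 ± 0.21 SE, adjusted p = 0.0477). Of 17 Toll-like receptor and adaptor genes 1 thus fell and 1 rose, near the shares of all genes (4.72% and 3.81%).

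Inflammatory monocyte genes did not share a direction. Ly6c2, the surface antigen by which these cells are recognised, was at 2.51 FPKM in PBS, 145 and 296 in WT pristane and 42.9 and 19.8 in the Irf8KO-labelled libraries (log2 change 3.11 ± 0.67 SE, adjusted p = 0.0676). Both were over PBS and under both WT pristane libraries, and the difference from WT pristane missed the threshold (log2 difference -2.78 ± 0.54 SE, adjusted p = 0.13). Ms4a4c, a membrane protein of monocytes, was at 10.9 in PBS, 66.1 and 191 in WT pristane and 0.254 and 0.548 (log2 change -3.10 ± 0.70 SE, adjusted p = 0.0732). Plac8, a cysteine-rich protein of monocytes and lymphocytes, fell from 706 to 109 and 57.1 (log2 change -3.14 ± 0.48 SE, adjusted p = 0.0432), with 639.5 and 863 in WT pristane. Ccr2, the receptor that draws monocytes from the blood, was at 4.91 in PBS, 27.1 and 85.5 in WT pristane and 5.03 and 3.13 (log2 change -0.24 ± 0.77 SE, adjusted p = 0.848). The high-affinity Fc receptor Fcgr1 was at 2.59 in PBS, 73.1 and 271 in WT pristane and 2.97 and 3.72 (log2 change 0.27 ± 0.84 SE, adjusted p = 0.848). The Irf8KO-labelled and PBS values of these 2 genes differed by less than their standard error, and both genes were named after their values were seen. Csf1r, the receptor on which macrophages depend, was at 86.8, 308 and 279 (log2 change 1.74 ± 0.44 SE, adjusted p = 0.0849), and Cd14, the co-receptor for lipopolysaccharide, at 409, 1721 and 1256 (log2 change 1.84 ± 0.55 SE, adjusted p = 0.108). Of 14 genes 0 rose (all genes 3.81%) and 1 fell (all genes 4.72%) in limma. At an unadjusted p under 0.05, 4 were higher (all genes 1738 of 11117) and 2 lower (all genes 2009 of 11117). The list median was 0.47, against 2.09 in WT pristane. The monocyte chemokines Ccl2 and Ccl7 were at 65.4 and 19.3 FPKM in PBS. In Irf8KO-labelled library 1 they were at 36 and 4.19, and in library 2 at 28.6 and 4.31. The WT pristane libraries disagreed, with 247 and 2519 for Ccl2 and 50.3 and 898 for Ccl7.

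Most of the tested B cell and mast cell genes fell. Ms4a1, which encodes CD20, was at 325 FPKM in PBS and 13.2 and 8.11 in the Irf8KO-labelled libraries (log2 change -4.84 ± 0.63 SE, adjusted p = 0.0378). Mzb1, a chaperone of B1 and marginal zone B cells, was at 261, 8.04 and 8.79 (log2 change -4.80 ± 0.20 SE, adjusted p = 0.0241). The receptor subunit Cd79b was at 774, 59.1 and 32.5 (log2 change -4.11 ± 0.66 SE, adjusted p = 0.0463), and Bank1, a scaffold of B cell receptor signalling, at 114, 4.65 and 5.5 (log2 change -4.24 ± 0.24 SE, adjusted p = 0.0264). Of 17 B cell genes 11 fell (all genes 4.72%), with a median of -3.98. In WT pristane against the same PBS library 16 of the 17 fell (all genes 5.46%), with a median of -4.61. For 12 of the 17 both Irf8KO-labelled libraries were higher than both WT pristane libraries (all genes 26.1%). For Ms4a1 the WT pristane libraries were at 2.17 and 0.358 and the difference missed the threshold (log2 difference 2.45 ± 0.52 SE, adjusted p = 0.139). The T cell genes Cd4 and Cd3g fell, Cd4 from 7.06 to 1.34 and 0.737 (log2 change -2.00 ± 0.30 SE, adjusted p = 0.043) and Cd3g from 36.8 to 12.1 and 9.14 (log2 change -1.72 ± 0.27 SE, adjusted p = 0.0445). These were the 2 of 16 T cell genes that passed (all genes 4.72%), and 15 were lower than PBS in both libraries (all genes 46%). Gimap4 and Gimap1, small GTPases of lymphocyte survival, fell from 118 to 9.12 and 6.36 (log2 change -3.79 ± 0.29 SE, adjusted p = 0.0274) and from 82.3 to 6.63 and 4.76 (log2 change -3.65 ± 0.42 SE, adjusted p = 0.0342).

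The mast cell protease genes were near the lower limit of the table after pristane. Cma1, a mast cell chymase, fell from 134 FPKM to 2.38 and 3.4 (log2 change -5.13 ± 0.30 SE, adjusted p = 0.0264), and Cpa3, carboxypeptidase A3, from 58.5 to 0.158 and 0.226 (log2 change -5.64 ± 0.22 SE, adjusted p = 0.0194). Mcpt4 was at 70.2 in PBS and listed at 0 in all 4 pristane libraries. Of 11 mast cell genes 9 fell (all genes 4.72%), and 9 fell in WT pristane (all genes 5.46%). Members such as Mcpt4 and Cpa3 reached 1 FPKM only in PBS and were tested for that reason. The filter thus set part of these counts in advance, and they are a description only. Hdc, which makes histamine and is also used by neutrophils, was at 10.9, 108 and 109.8 (log2 change 3.20 ± 0.83 SE, adjusted p = 0.0879). The eosinophil receptor chain Il5ra, also borne by B1 cells, fell from 16.2 to 0.0547 and 0.0791 (log2 change -4.01 ± 0.19 SE, adjusted p = 0.0264). Among natural killer cell genes Gzma, granzyme A, rose from 0.718 to 21.1 and 15.7 (log2 change 3.48 ± 0.28 SE, adjusted p = 0.0274), less than the 49 and 40.5 of WT pristane, though that difference missed the threshold (log2 difference -1.24 ± 0.23 SE, adjusted p = 0.123). It was the only natural killer cell gene of 10 that rose (all genes 3.81%). The fibroblast list summed to 0 FPKM in PBS, 49.9 and 44.2 in WT pristane and 22.9 and 71.2 in the Irf8KO-labelled libraries, with Dcn, decorin, at 12 and 39.8. Of the globin genes, Hbb-b1 was at 121 in PBS and 26.9 and 2.48 (log2 change -3.63 ± 1.70 SE, adjusted p = 0.222), so red cell RNA differed between libraries of 1 group, and its part in the results was not tested.

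**Figure D4:**
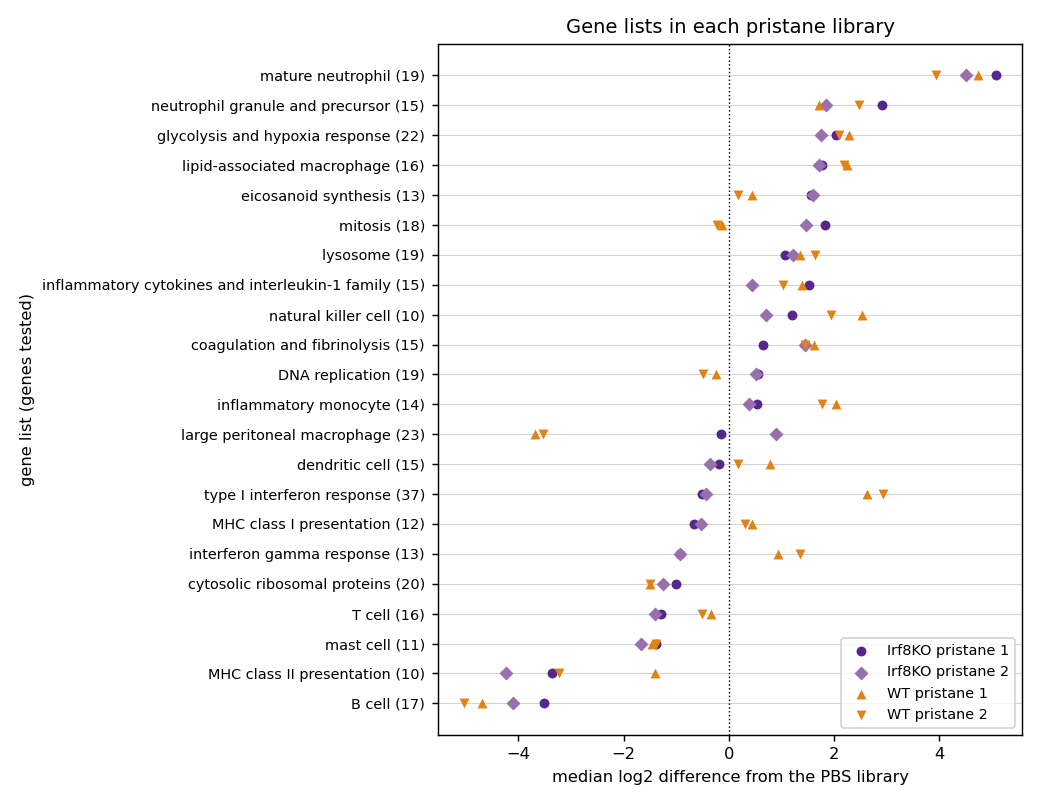
Median log2 difference from the PBS library over the tested genes of 22 gene lists, with a point for each of the 4 pristane libraries; the dotted line marks 0. Lists are ordered by the Irf8KO pristane median, from mature neutrophil genes at 4.82 to B cell genes at -3.98; the type I interferon and large peritoneal macrophage lists have the widest gaps between the pristane groups among those shown.

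Several genes of macrophage activation rose. Spp1, osteopontin, was at 17.6 FPKM in PBS and 3279 and 3113 in the Irf8KO-labelled libraries (log2 change 7.43 ± 0.23 SE, adjusted p = 0.0157). Arg1, arginase, which uses up arginine in alternatively activated macrophages, was at 58.7, 5918 and 6134 (log2 change 6.66 ± 0.58 SE, adjusted p = 0.0285), and its transporter partner Slc7a2 at 4.59, 109.8 and 178 (log2 change 4.66 ± 0.48 SE, adjusted p = 0.0318). The libraries of the pair were close to each other for Spp1 and Arg1. Trem2, a lipid receptor, rose from 11.3 to 139 and 91.9 (log2 change 3.21 ± 0.35 SE, adjusted p = 0.0324), and Olr1, the receptor for oxidised lipoprotein, from 0.963 to 28.7 and 28.3 (log2 change 3.91 ± 0.42 SE, adjusted p = 0.0319). Of 16 genes of lipid-associated macrophages 7 rose (all genes 3.81%) and 1 fell (all genes 4.72%), with a median of 1.69. The gene that fell was Fabp4, from 105 to 23.7 and 16.1 (log2 change -2.36 ± 0.33 SE, adjusted p = 0.0404), named because the count is small. Apoe, the lipid carrier, was among the most abundant of them at 6515 FPKM in PBS and at 3076 and 917 (log2 change -1.96 ± 0.81 SE, adjusted p = 0.184). Mmp9, gelatinase B, rose from 4.66 to 435 and 281 (log2 change 5.95 ± 0.43 SE, adjusted p = 0.0274), and Timp1, an inhibitor of such proteases, from 0.706 to 50.8 and 60.2 (log2 change 5.04 ± 0.58 SE, adjusted p = 0.0342). Of 16 alternative activation genes 3 rose (all genes 3.81%) and 1 fell (all genes 4.72%). The one that fell was Irf4, a factor of B cells and alternatively activated macrophages, from 18.1 to 2.31 and 1.7 (log2 change -2.68 ± 0.34 SE, adjusted p = 0.0371). Across the 16 the median was -0.14. In both libraries 7 were above PBS (all genes 40.7%) and 8 below (all genes 46%), so the list had no common direction.

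Several genes of coagulation and fibrinolysis rose. Tgm2, tissue transglutaminase, which cross-links proteins, rose from 10.4 FPKM to 484 and 531 (log2 change 5.47 ± 0.24 SE, adjusted p = 0.0245). F7, coagulation factor VII, rose from 17.6 to 145 and 144 (log2 change 2.97 ± 0.19 SE, adjusted p = 0.0264). With F10 and Serpinb2 these belong to the 6 of 15 coagulation and fibrinolysis genes that rose (all genes 3.81%). Pf4, a chemokine of the platelet list, was at 1118 in PBS and 85.4 and 204 (log2 change -3.07 ± 1.16 SE, adjusted p = 0.16). The whole platelet list summed to 1118.07 FPKM in PBS, of which Pf4 was 1117.81. Its value thus does not speak for the other platelet genes.

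Some enzymes that make eicosanoids from arachidonic acid rose. Alox5, which starts leukotriene synthesis, was at 21.3 FPKM in PBS, 18.4 and 20.5 in WT pristane and 92.7 and 130.4 in the Irf8KO-labelled libraries (log2 change 2.32 ± 0.28 SE, adjusted p = 0.0356). Its helper protein Alox5ap rose from 432 to 1870.3 and 1808 (log2 change 2.09 ± 0.23 SE, adjusted p = 0.0337). Ptgs1, cyclooxygenase 1, was at 20.3 in PBS, 8.11 and 9.98 in WT pristane and 62 and 77.7 (log2 change 1.72 ± 0.26 SE, adjusted p = 0.043), and Tbxas1, thromboxane synthase, rose from 50.5 to 156 and 155 (log2 change 1.61 ± 0.18 SE, adjusted p = 0.0337). For Alox5 and Ptgs1 both WT pristane libraries lay below PBS, and the differences from WT pristane missed the threshold (log2 difference 2.44 ± 0.23 SE, adjusted p = 0.0562 and log2 difference 2.82 ± 0.21 SE, adjusted p = 0.0541). Of 13 genes 5 rose (all genes 3.81%).

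Saa3, an acute-phase serum amyloid made locally by macrophages and other cells, was the gene with the highest listed value in both Irf8KO-labelled libraries. It was at 4852 FPKM in PBS, 1337 and 628 in WT pristane and 40842 and 36484 in the Irf8KO-labelled libraries. It made up 1.03% of the summed FPKM in PBS and 7.01% and 7.04% in the pair. Both were above PBS and WT pristane was below it, but neither the change from PBS (log2 change 2.99 ± 0.56 SE, adjusted p = 0.0556) nor the difference from WT pristane (log2 difference 5.39 ± 0.46 SE, adjusted p = 0.0562) passed the threshold. Marco, a scavenger receptor, was at 107 in PBS, 18.7 and 0.934 in WT pristane, and 199 and 215 under the Irf8KO label (log2 change 0.95 ± 1.46 SE, adjusted p = 0.678).

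Of the inflammatory cytokines and the interleukin-1 family, 4 of 15 genes rose (all genes 3.81%). Il1b rose from 17.7 FPKM to 1128 and 546 (log2 change 5.39 ± 0.71 SE, adjusted p = 0.0378), and its natural antagonist Il1rn from 2 to 125 and 66.5 (log2 change 4.94 ± 0.63 SE, adjusted p = 0.0371). The decoy receptor Il1r2 was listed at 0 in PBS and at 170.2 and 107. Il6, a driver of the acute-phase response, rose from 18.1 to 101 and 76.7 (log2 change 2.22 ± 0.24 SE, adjusted p = 0.0324), and was at 26 and 26.3 in WT pristane, where the difference missed the threshold (log2 difference 1.71 ± 0.20 SE, adjusted p = 0.0694). Tnf was at 90.2 in PBS, 737 and 671 in WT pristane, and 286 and 122 (log2 change 1.04 ± 0.56 SE, adjusted p = 0.27). In WT pristane Il1b was at 2118 and 939, and Il1rn at 248 and 117. Of the 15 genes, 6 had both Irf8KO-labelled libraries below both WT pristane libraries (all genes 27.1%) and 2 had both above (all genes 26.1%). Of 9 colony-stimulating factor and receptor genes 5 rose (all genes 3.81%). Among them were the receptor chains for granulocyte-macrophage colony-stimulating factor, Csf2ra from 10.5 to 108 and 99 (log2 change 3.17 ± 0.19 SE, adjusted p = 0.0264) and Csf2rb from 12 to 50 and 52.5 (log2 change 2.01 ± 0.18 SE, adjusted p = 0.0297). Of 18 NF-kB and immediate early genes 0 passed in limma (all genes 8.54%). At an unadjusted p under 0.05, 4 were higher (all genes 1738 of 11117) and 3 lower (all genes 2009 of 11117).

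Some genes of cell division rose against PBS. Ccnb1, the cyclin that starts mitosis, was at 0.787 FPKM in PBS, 0.733 and 0.467 in WT pristane and 11.5 and 10 in the Irf8KO-labelled libraries (log2 change 2.71 ± 0.26 SE, adjusted p = 0.0318). Birc5, survivin, of the chromosomal passenger complex, was at 3.11, 3.59 and 4.04, and 31.6 and 22.9 (log2 change 2.76 ± 0.29 SE, adjusted p = 0.0318). Plk1, a mitotic kinase, rose from 0.209 to 5.28 and 5.17 (log2 change 2.36 ± 0.23 SE, adjusted p = 0.0318), and Ube2c, which marks cyclins for breakdown, from 8.5 to 37.3 and 40.9 (log2 change 2.08 ± 0.32 SE, adjusted p = 0.0448). Of 18 mitosis genes 8 rose (all genes 3.81%), with a median of 1.51, while the median in WT pristane was -0.19. The Irf8KO pristane median ran from 0.70 to 2.26 over the alternatives, lowest with a pseudocount of 5 FPKM. In 18 of 18 both Irf8KO-labelled libraries were above both WT pristane libraries, while 26.1% of all genes were. The list summed to 29.5 FPKM in PBS, 23.4 and 21.1 in WT pristane and 163 and 146 in the Irf8KO-labelled libraries. A member such as Ccnb1 reached 1 FPKM only in the Irf8KO-labelled libraries and was tested for that reason. The filter thus set part of this count in advance, and the count is a description only. The difference from WT pristane missed the threshold for each named gene, with log2 difference 2.88 ± 0.22 SE, adjusted p = 0.0541 for Ccnb1 and log2 difference 2.54 ± 0.24 SE, adjusted p = 0.0562 for Birc5. Of 19 DNA replication genes 1 rose, near the share of all genes (3.81%). It was Rrm2, a subunit of ribonucleotide reductase, at 2.32, 12.8 and 14.6 (log2 change 2.14 ± 0.27 SE, adjusted p = 0.0371). Pcna, the sliding clamp, was at 46.8, 72.2 and 65 (log2 change 0.54 ± 0.20 SE, adjusted p = 0.16).

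Many of the glycolysis genes and some of antioxidant defence rose. Slc16a3, which exports lactate, rose from 7.04 FPKM to 258 and 226 (log2 change 4.91 ± 0.35 SE, adjusted p = 0.0274), and Ldha, lactate dehydrogenase, from 184 to 1069.7 and 1049 (log2 change 2.52 ± 0.21 SE, adjusted p = 0.0274). Of 22 glycolysis and hypoxia genes 13 rose (all genes 3.81%), with a median of 1.89. In WT pristane 14 rose (all genes 5.18%), with a median of 2.11. Of 13 antioxidant genes under Nrf2 4 rose (all genes 3.81%). Among them were Gsr, glutathione reductase, from 14.7 to 103 and 84.4 (log2 change 2.59 ± 0.22 SE, adjusted p = 0.0275) and Hmox1, heme oxygenase, from 22.9 to 122 and 121 (log2 change 2.36 ± 0.21 SE, adjusted p = 0.0297). Of 19 lysosome genes 3 rose (all genes 3.81%), with the protease Ctsd at 713, 5727 and 9262 (log2 change 3.35 ± 0.43 SE, adjusted p = 0.0376). Of 17 respiratory chain genes 1 rose, also near the share of all genes (3.81%). It was Cox7c, a subunit of cytochrome c oxidase, which rose from 3.14 to 40 and 37.1 (log2 change 3.25 ± 0.20 SE, adjusted p = 0.0264). Cytosolic ribosomal protein genes were lower in both libraries for 20 of 20 (all genes 46%), with a median of -1.14. Of these 1 passed the test, near the share of all genes that fell (4.72%): Rpl5, from 990.3 to 355 and 337 (log2 change -1.52 ± 0.20 SE, adjusted p = 0.0378). Scd1, which makes monounsaturated fatty acids, fell from 68.3 to 3.95 and 2.94 (log2 change -3.97 ± 0.46 SE, adjusted p = 0.0342).

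These results rest on 1 PBS library and 2 residual degrees of freedom. Without WT pristane 1, WT pristane 2, Irf8KO pristane 1 or Irf8KO pristane 2, 0 genes passed the limma threshold against PBS, while 3972, 3984, 2316 and 2261 genes had an unadjusted p under 0.05, against 3747 with all libraries. An exact permutation test of a single gene has only 3 arrangements here and could not pass. The test between the pristane groups gave 0 genes with a pseudocount of 0.1 FPKM and 242 among genes with a mean of at least 5 FPKM.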

How the data were processed

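The authors deposited 1 table of 22815 gene symbols with FPKM in 5 libraries, without fragment counts. It is named a count table, but its values are not whole numbers. Per the submitters' processing notes TopHat2 2.0.10, Cufflinks 2.2.1, Cuffnorm and BWA were used, while the role of each tool, the build and any scaling across libraries remain not given in the sources used here. A count test was planned, with limma-trend planned for any other unit, which was used. Depth was estimated from the lowest FPKM of genes with 1 transcript, since a single fragment gives a fixed product of FPKM and length, and 64.8% to 81% of those products lay within 0.15 of a whole number. The 27 symbols turned into dates were tested and never named.

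Values were compared as log2(FPKM + 1) in limma (version 3.58.1, R version 4.3.3), with an intensity trend, 3 group means, all 5 libraries and the 11117 genes with at least 1 FPKM in a library. The prior degrees of freedom were 1.99. The 2-sided p-values were adjusted over these genes (Benjamini-Hochberg, threshold 0.05). The lone PBS sample takes its spread from the pristane pairs. The rule for named genes took Irf8, up to 15 of the largest rises and of the largest falls past the threshold, from each list the 4 smallest p-values and 2 highest levels, and up to 10 genes each way with the largest difference from WT pristane. The rule leaves out predicted genes and segments of antigen receptors, and some genes it takes are not reported here. Genes named outside it are given as such, except Rpp25 and Procr, which stand at the level threshold, and Rn45s, which describes the libraries. The members, gene lists and rules were chosen with earlier results of these data known. Alternatives changed the pseudocount, the filter on low values, the scaling, the empirical Bayes step and the libraries used. Members of gene families with similar sequence may share fragments. Older symbols were used where the table has them.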

Additional observations from a re-analysis of the deposited data

Results flagged for a closer look

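The change from PBS differed between the pristane groups, by the test of that difference in limma, in 3 genes. The log2 difference between Irf8KO pristane and WT pristane was -5.95 for Rsad2, -5.42 for Ifit1 and -4.47 for Rtp4. In each gene both Irf8KO-labelled libraries lay below both WT pristane libraries. The adjusted p was 0.0368 for each of them, and 0 genes passed without any 1 of the 4 pristane libraries.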

How the results depend on the processing

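Against PBS, 949 genes passed, and between 641 and 1272 did so under the other pseudocounts, filters and scalings and the robust empirical Bayes fit. Genes that rose numbered 639 with a mean of at least 5 FPKM and 656 with the robust fit, and genes that fell 260 with a pseudocount of 0.1 FPKM, 813 with a pseudocount of 5 FPKM, 868 without a filter and 294 under the 5 FPKM mean filter. The number that passed was 0 with any 1 pristane library left out, in both directions and also between the pristane groups, and 0 with the PBS and Irf8KO libraries alone, where 4003 had an unadjusted p under 0.05. With the replicate number as a block 0 genes passed against PBS and 0 between the pristane groups, with 3443 and 2096 at an unadjusted p under 0.05. The labels do not say whether the replicate numbers pair the samples. The differences between replicates 1 and 2 correlated at 0.045 across genes between the pristane groups. That value cannot show whether samples of the same number were handled together. Between the pristane groups 3 genes passed, and 0 with a pseudocount of 0.1 FPKM, 5 with a pseudocount of 5 FPKM, 0 without a filter, 242 with a mean of at least 5 FPKM and 264 with the robust fit; at an unadjusted p under 0.05 there were 2234 with a pseudocount of 0.1 FPKM and 2586 without a filter. Genes 2-fold higher in both libraries numbered 631 with a pseudocount of 5 FPKM, and genes 2-fold lower 1872 with a pseudocount of 0.1 FPKM, 420 with a pseudocount of 5 FPKM and 438 under the 5 FPKM mean filter. Upper quartile scaling moved the median of all genes from -0.05 to -0.17, and the change of a gene is then to be read against that shift.

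Of 79 named genes past the threshold, 66 passed with a pseudocount of 0.1 FPKM, 76 with one of 5 FPKM, 59 without a filter, 73 after quantile normalization and 78 with upper quartile scaling, and 0 changed sign in any alternative. Uncalled genes near 0 changed sign. After quantile normalization the log2 change was 0.02 for B2m, -0.14 for Bst2, 0.02 for H2-D1, -0.27 for Irf1, 0.12 for Procr, 0.22 for Rsad2 and -0.11 for Selp. With upper quartile scaling Irf1 and Cfp were both at -0.13. With 1 Irf8KO library left out, the range was -0.44 to 0.46 for Irf1, -0.52 to 0.03 for Ccr2, -0.02 to 0.05 for Cfp, -0.08 to 0.01 for Rsad2 and -0.08 to 0.89 for Selp. List medians kept their sign in every alternative for 12 of 13 lists; that of large peritoneal macrophage genes ran from -0.15 to 0.89. Without members listed at 0 in a group, an alternative chosen after seeing the data, the type I interferon median was -0.45. Depth limits genes of low FPKM most, and the PBS library was the shallowest.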

Other observations

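Interferon regulatory factors other than Irf8 and Irf7 differed among themselves. Irf9, which pairs with STAT proteins in interferon signalling, was at 16.9 FPKM in PBS, 33.9 and 31.5 in WT pristane and 7.35 and 10.8 in the Irf8KO-labelled libraries (log2 change -0.85 ± 0.29 SE, adjusted p = 0.135). Irf5, a factor of Toll-like receptor signalling, was at 47.4, 106 and 132, and 47.2 and 24.6 (log2 change -0.46 ± 0.45 SE, adjusted p = 0.513). Of 8 members tested 1 fell (all genes 4.72%), Irf4, and both libraries of each pristane group were lower than PBS for it. Complement genes divided as well: C3, the central component, rose from 13.6 to 100.2 and 99 (log2 change 2.79 ± 0.38 SE, adjusted p = 0.0391), the receptor C5ar1 from 69.9 to 418 and 295 (log2 change 2.31 ± 0.30 SE, adjusted p = 0.0378), and Cfp, properdin, was at 908, 898 and 937 (log2 change 0.01 ± 0.21 SE, adjusted p = 0.97). Fcgrt, the neonatal Fc receptor that recycles antibody, fell from 60.3 to 19.3 and 18.6 (log2 change -1.62 ± 0.19 SE, adjusted p = 0.0342). Cd36, a scavenger receptor for lipid and dying cells, was at 65.5 FPKM in PBS, 181 and 127 in WT pristane and 24.1 and 14.3 in the Irf8KO-labelled libraries (log2 change -1.76 ± 0.42 SE, adjusted p = 0.0785).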
